A study of Homo sapiens with 6 samples.

Results

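The genes of the unfolded protein response and of the ATF4 stress programme were examined in cultures of A549, an established line from a human lung adenocarcinoma, that carried SNHG5 or the vector by transfection. The set held 33 genes, taken by symbol, of 58302 gene rows in the table, and all 33 passed the filter on low counts. They comprised 18 genes around ATF4 (6 regulators, 8 amino acid and one-carbon enzymes and 4 other outputs), 11 genes of the endoplasmic reticulum (ER; 8 chaperones and folding factors and 3 genes of ER-associated degradation), and the 3 ER stress sensor genes with XBP1. Each group, SNHG5 overexpression and vector control, had 3 libraries that the labels call biological replicates, all at passages 6-8. The series title places SNHG5, a long non-coding RNA that hosts small nucleolar RNAs, in migration and invasion. The sources used here state neither the vector's name nor the dose or time of transfection.

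In the unfolded protein response, misfolded protein in the ER lumen engages the sensors PERK, IRE1 and ATF6, which are encoded by EIF2AK3, ERN1 and ATF6. ATF6 and spliced XBP1 drive chaperones and degradation factors of the ER. PERK, like the other kinases that phosphorylate eIF2α, slows translation but favours that of ATF4, a transcription factor for amino acid synthesis, transport and stress feedback. IRE1 splicing of XBP1, cleavage of ATF6 and translation of ATF4 act on RNA processing or protein and cannot be read from counts per gene.

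Known promoter elements of these branches were searched, and 6 promoters are shown because each holds a known element and belongs to a gene described below. RefSeq windows of 300 bases (GRCh38.p14), from 250 bases before to 50 bases after the transcription start, were found for 29 of the 33 genes. The ER stress response element (ERSE, CCAAT and CCACG with 9 bases between), bound by NF-Y with ATF6 or XBP1, was searched on both strands and lay in the windows of CALR, CRELD2, PDIA6 and XBP1. Only 0.0769% of all 35116 windows hold it. The second form (ERSE-II, ATTGG and CCACG with 1 base between) lay in those of HERPUD1, SDF2L1 and HYOU1, against 0.0541% of all windows. The core of the element shared by ATF4 and C/EBP factors (CARE, TGATGNAA) lay in those of ASNS, CHAC1 and HERPUD1, against 3.62% of all windows. The unfolded protein response element core (UPRE, TGACGTGG) was present in the HYOU1 window, where it overlaps 1 of that gene's 2 ERSE-II matches, and in 0.729% of all windows. Windows are printed 5′ to 3′ on the strand of the gene, and capitals mark the matches, which for CALR, CRELD2, SDF2L1, CHAC1 and the CARE of HERPUD1 are the reverse complement of the letters above.
CALR (chr19:12938359-12938658, plus strand): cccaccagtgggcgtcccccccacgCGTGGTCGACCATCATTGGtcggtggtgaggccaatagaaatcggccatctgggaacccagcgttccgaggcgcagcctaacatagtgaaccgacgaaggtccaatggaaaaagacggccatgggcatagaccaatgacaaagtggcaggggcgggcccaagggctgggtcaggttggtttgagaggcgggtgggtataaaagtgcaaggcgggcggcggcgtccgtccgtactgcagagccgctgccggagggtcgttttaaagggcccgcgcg
CRELD2 (chr22:49918384-49918683, plus strand): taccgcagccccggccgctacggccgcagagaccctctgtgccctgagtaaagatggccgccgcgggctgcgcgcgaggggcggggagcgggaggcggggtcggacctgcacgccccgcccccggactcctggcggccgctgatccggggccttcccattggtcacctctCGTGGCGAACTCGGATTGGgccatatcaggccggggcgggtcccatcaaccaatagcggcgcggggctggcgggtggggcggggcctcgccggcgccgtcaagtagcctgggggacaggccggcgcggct
SDF2L1 (chr22:21642052-21642351, plus strand): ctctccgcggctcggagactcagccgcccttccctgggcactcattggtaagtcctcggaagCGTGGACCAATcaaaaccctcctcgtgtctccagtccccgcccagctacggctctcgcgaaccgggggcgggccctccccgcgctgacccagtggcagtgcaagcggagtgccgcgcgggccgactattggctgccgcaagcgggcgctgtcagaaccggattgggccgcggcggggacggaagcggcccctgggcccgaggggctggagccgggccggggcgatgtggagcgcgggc
HERPUD1 (chr16:56931892-56932191, plus strand): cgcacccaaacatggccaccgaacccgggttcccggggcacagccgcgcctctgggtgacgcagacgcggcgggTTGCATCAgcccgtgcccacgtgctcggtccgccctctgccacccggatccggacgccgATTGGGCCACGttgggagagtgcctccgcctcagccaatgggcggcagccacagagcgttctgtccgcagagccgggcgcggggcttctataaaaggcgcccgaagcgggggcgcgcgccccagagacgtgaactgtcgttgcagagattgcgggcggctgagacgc
ASNS (chr7:97872359-97872658, minus strand): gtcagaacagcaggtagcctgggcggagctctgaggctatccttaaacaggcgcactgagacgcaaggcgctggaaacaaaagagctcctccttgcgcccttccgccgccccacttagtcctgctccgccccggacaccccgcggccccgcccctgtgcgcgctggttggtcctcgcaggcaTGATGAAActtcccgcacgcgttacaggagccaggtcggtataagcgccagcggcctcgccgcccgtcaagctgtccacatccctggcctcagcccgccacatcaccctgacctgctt
CHAC1 (chr15:40953221-40953520, plus strand): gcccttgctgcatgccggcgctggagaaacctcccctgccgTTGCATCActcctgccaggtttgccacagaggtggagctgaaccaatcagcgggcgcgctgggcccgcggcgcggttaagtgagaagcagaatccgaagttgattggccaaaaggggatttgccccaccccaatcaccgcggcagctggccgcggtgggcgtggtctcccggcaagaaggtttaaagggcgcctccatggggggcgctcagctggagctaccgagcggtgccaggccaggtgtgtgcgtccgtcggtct
A match describes these letters in these windows and is no measured binding site.

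The libraries held 13378079 to 16999604 counts. SNHG5 itself stood at 153.3, 126.5 and 62.9 CPM (counts scaled for depth, on TMM-adjusted totals) in overexpression 1, 2 and 3, against 61.0, 101.3 and 55.1 CPM in controls 1, 2 and 3, for a log2 fold change of 0.66 (SE 0.37, edgeR adjusted p 0.746). The library labelled overexpression 3 thus held about as much SNHG5 as controls 1 and 3, and every direction below is between libraries as labelled. All 10 lung adenocarcinoma and epithelial markers of the labelled line had counts. Their fitted levels were lower in the overexpression libraries for 8 and higher for 2, against 7699 lower and 7932 higher among all 15631 genes. In edgeR 0 of them were called, against 0.128% of all genes, and 1 was at an unadjusted p under 0.05, against 6.49%. Of 5 leukocyte markers PTPRC, CD3E and LYZ were at 0 counts in every library, while CD14 had 4, 0 and 29 counts in the overexpression libraries, against 3, 23 and 9 counts in controls, and CD79A at most 4. Of 4 endothelial markers CDH5 and KDR were at 0 counts, while PECAM1 and VWF had 2 counts each, in 1 control. A count of 0 allows up to 0.175 to 0.218 CPM per library, a bound for counting error only. In RNA of whole cultures, fewer cells of a kind and less RNA per cell cannot be told apart.

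None of the 33 genes passed the threshold of an adjusted p of 0.05 in the edgeR quasi-likelihood test over 15631 genes, where 0.128% of all genes passed. DESeq2 and limma-voom also called 0 of the 33. By unadjusted edgeR p under 0.05, 1 of 33 genes was reached, EIF2AK3, against 6.49% of all genes. With the replicate number as a block 0 of 33 passed, against 0.467% of all genes, and 3 (PHGDH, EIF2AK3 and SEL1L) had an unadjusted edgeR p under 0.05, against 9.29%. For all 33 genes the ranges of the overexpression and control libraries overlapped, whereas 13.6% of all genes had groups that did not overlap. Fitted levels were lower in the overexpression libraries for 23 genes and higher for 10, against 7699 lower and 7932 higher among all 15631 genes. No log2 fold change of the 33 lay beyond -0.85 and 0.81. The median log2 fold change was -0.14 for the ATF4 genes, -0.19 for the ER genes and 0.45 for the sensors with XBP1, against 0.01 over all genes tested. The ATF4 and ER medians thus differed by 0.06. Differences between role groups were not tested, and the plot of medians by library is a description. In data simulated on these libraries, the same test recovered 11.3% of 2-fold and 88% of 4-fold changes, so most changes of under 2-fold would not have been called.

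**Figure D1:**
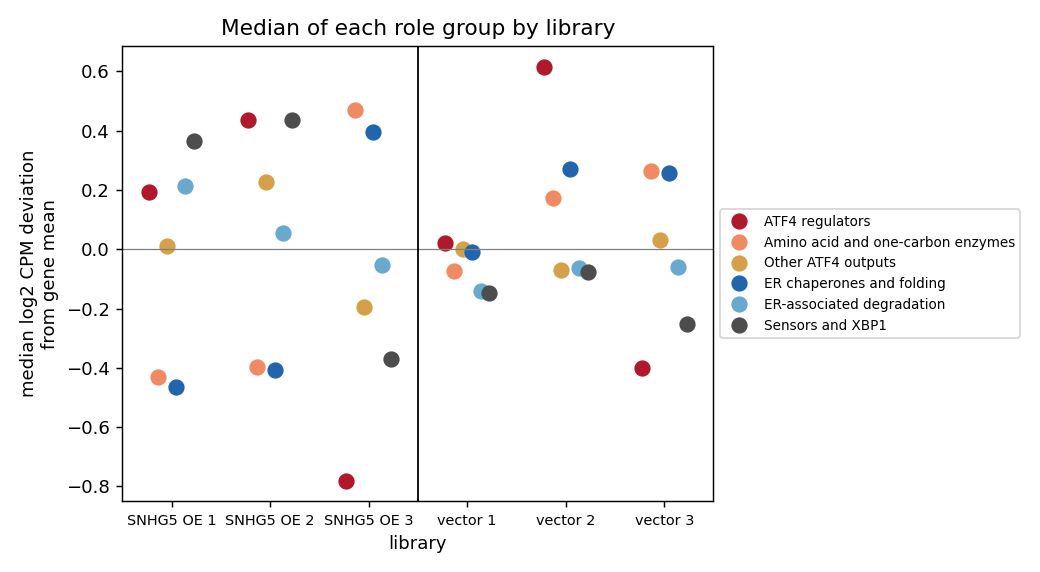
Median of each role group in each library, as log2 CPM minus the gene's mean over the 6 libraries (y axis); SNHG5 overexpression libraries stand left of the line and vector controls right of it. The ATF4 regulators (-0.78) and the enzymes (0.47) lie furthest apart in overexpression 3.

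Levels of the regulators of the ATF4 programme differed between replicates, far more for DDIT3 and PPP1R15A than for ATF4, TRIB3 and CEBPB. ATF4 (chromosome 22, 39519695 to 39522685, plus strand) stood at 519, 539 and 261 CPM in overexpression 1, 2 and 3, against 501, 539 and 333 CPM in controls 1, 2 and 3. The third replicate was the lowest of each group. The highest library held 2.07 times the lowest, a ratio reached by 48.6% of all genes tested. The means were 440 ± 155 CPM with SNHG5 and 458 ± 110 CPM with vector (SD, n = 3 each), and the log2 fold change was -0.06 (SE 0.32). DDIT3, which encodes the ER stress factor CHOP (chromosome 12, 57516588 to 57520517, minus strand), stood at 39.6, 60.6 and 4.31 CPM in overexpression 1, 2 and 3. It stood at 20.9, 48.9 and 6.90 CPM in controls 1, 2 and 3. Its highest library held 14.1 times the lowest, a ratio reached by 2.67% of all genes tested, and overexpression 2 and control 2 lay at the top while overexpression 3 and control 3 lay at the bottom. The log2 fold change of DDIT3 was 0.44 with an SE of 0.91. ATF4 has processed copies, of which ATF4P3 held 2111 counts against 41581 for ATF4. DDIT3 overlaps MARS and MBD6 on the opposite strand, and without strand its reads and theirs cannot be told apart.

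PPP1R15A, whose product GADD34 reverses eIF2α phosphorylation (chromosome 19, 48872392 to 48876057, plus strand), stood at 1706, 1671 and 124 CPM in overexpression 1, 2 and 3. Controls 1, 2 and 3 held 1442, 953 and 463 CPM. The ratio of highest to lowest was 13.7, reached by 2.73% of all genes, and the log2 fold change of 0.29 (SE 0.82) turned to -0.24 with the replicate number as a block. Overexpression 3 was again the lowest library and control 3 the next. TRIB3, a pseudokinase that damps ATF4 signalling, stood at 53.3, 72.3 and 40.5 CPM in the overexpression libraries and 57.1, 87.1 and 42.1 CPM in the controls. CEBPB, a partner of ATF4, stood at 128, 168 and 66.1 CPM in overexpression 1, 2 and 3, against 114, 180 and 90.8 CPM in controls 1, 2 and 3. The ratios of highest to lowest were 2.15 for TRIB3 and 2.72 for CEBPB, reached by 45.0% and 28.3% of all genes. Both genes were highest in replicate 2 and lowest in replicate 3 of each group. NUPR1, a small stress-induced nuclear protein, was the exception, with 0.728, 0.801 and 3.32 CPM in overexpression 1, 2 and 3 and 1.53, 4.98 and 2.34 CPM in controls 1, 2 and 3. Its ratio of highest to lowest was 6.85, reached by 5.86% of all genes. NUPR1 rested on 11 to 76 counts per library, and its log2 fold change of -0.85 (SE 0.69) was the lowest of the 33.

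Overexpression 3 was the lowest of the 6 libraries for 5 of these 6 regulators, against 16.5% of all genes tested. The share of counts from mitochondrially encoded genes ran nearly opposite to the median level of the regulators. It was 5.04%, 3.8% and 6.16% in overexpression 1, 2 and 3, where the medians were 0.19, 0.43 and -0.78 on the log2 scale. It was 4.6%, 2.57% and 5.31% in controls 1, 2 and 3, where they were 0.02, 0.62 and -0.40. Its part in the result was not tested.

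**Figure D2:**
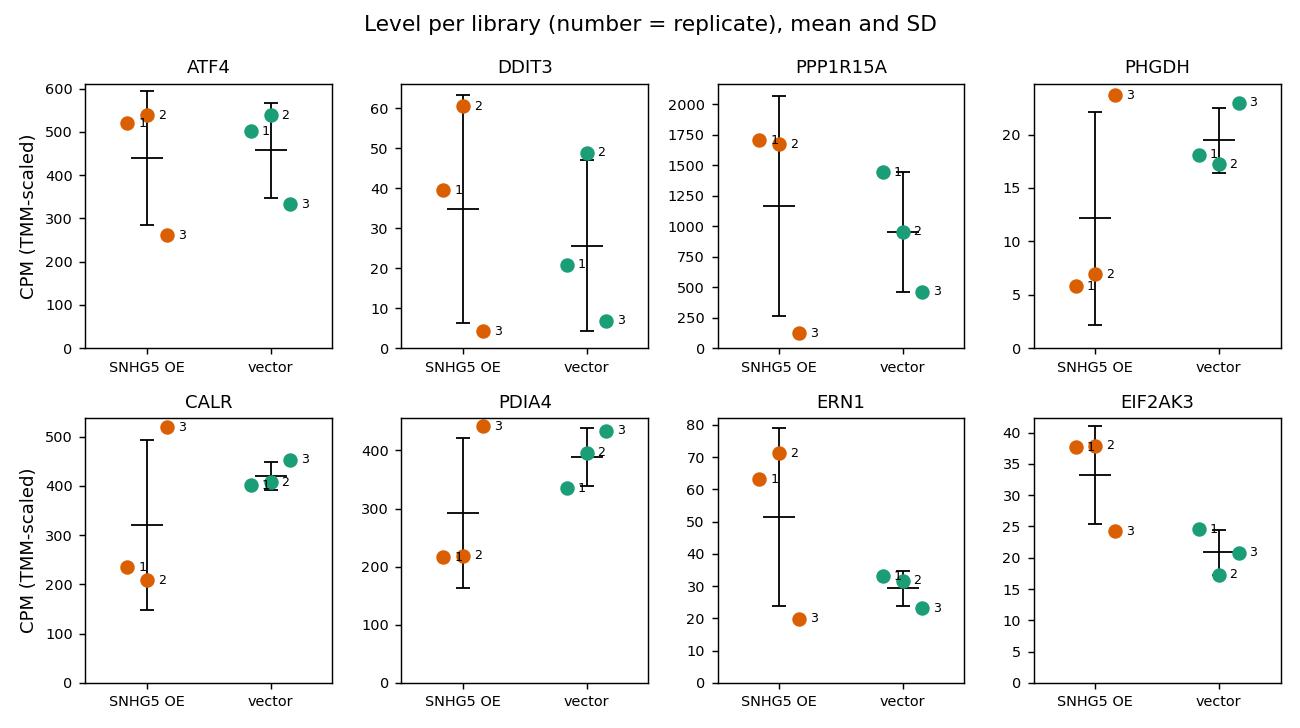
TMM-scaled CPM (y axis, from 0) of 8 genes in each library, SNHG5 overexpression left and vector right; numbers are replicates and the bar is the mean with its SD (n = 3). DDIT3 and PPP1R15A are at 4.31 and 124 CPM in overexpression 3, while CALR and PHGDH reach 519 and 23.7 CPM there.

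The amino acid and one-carbon enzymes are textbook ATF4 targets. All 8 had lower fitted levels in the overexpression libraries, against 7699 of all 15631 genes tested, and none of the 8 passed the threshold. PSAT1, PSPH, CBS and CTH turned in sign in 2 to 3 of 13 alternative fits each. PHGDH, the first enzyme of serine synthesis (chromosome 1, 119648411 to 119744226, plus strand), stood at 5.83, 6.91 and 23.7 CPM in overexpression 1, 2 and 3, against 18.1, 17.3 and 23.0 CPM in controls 1, 2 and 3. Overexpression 1 and 2 lay below every control and overexpression 3 above every control, and the means were 12.1 ± 10.0 CPM with SNHG5 and 19.4 ± 3.08 CPM with vector (SD, n = 3 each). The log2 fold change was -0.68 (SE 0.52, edgeR adjusted p 0.751). ASNS, which makes asparagine and has a CARE in the window shown above, stood at 20.02, 19.0 and 35.6 CPM in the overexpression libraries. The controls held 27.2, 29.9 and 36.0 CPM of ASNS. Its log2 fold change was -0.32 (SE 0.29), with overexpression 1 and 2 again the lowest libraries. MTHFD2, of the mitochondrial folate cycle, stood at 96.5, 96.7 and 136.5 CPM in overexpression 1, 2 and 3 and 113, 132 and 127 CPM in controls 1, 2 and 3. SHMT2, which feeds that cycle from serine, stood at 74.6, 76.2 and 118 CPM in overexpression 1, 2 and 3, against 99.3, 94.6 and 103 CPM in controls 1, 2 and 3. The highest library of MTHFD2 held 1.41 times its lowest, and that of SHMT2 1.58 times, with overexpression 3 at the top and overexpression 1 at the bottom as for PHGDH.

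The remaining enzymes had log2 fold changes of -0.16 for PSAT1 and -0.03 for PSPH, which complete serine synthesis, and of -0.14 for both CBS and CTH, which carry sulfur from homocysteine to cysteine. CBS has a near-identical copy, CBSL, with 113 counts over the 6 libraries against 691 for CBS, so its level is uncertain. The median log2 fold change of the 8 enzymes was -0.15, against -0.07 for the 6 regulators. For 7 of the 8, all but CTH, both overexpression 1 and overexpression 2 lay below all controls, against 23.7% of all genes tested, a pattern chosen after the values were seen. For 6 of the 8, overexpression 3 was the highest of all libraries, against 2806 of all 15631 genes.

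The other ATF4 outputs shared no direction. STC2, a secreted glycoprotein, stood at 439.9, 445.5 and 149.5 CPM in overexpression 1, 2 and 3, against 283.5, 214 and 229 CPM in controls 1, 2 and 3, with a log2 fold change of 0.51 (SE 0.39). Overexpression 1 and 2 were the highest libraries and overexpression 3 the lowest. CHAC1, which degrades glutathione, was near the lower end of the set at 0.910, 1.75 and 1.34 CPM in the overexpression libraries and 1.47, 2.10 and 2.34 CPM in the controls, from 15 to 38 counts each. SESN2, a leucine-sensing inhibitor of mTORC1, stood at 13.5, 17.7 and 12.5 CPM in overexpression 1, 2 and 3, against 16.1, 15.9 and 10.4 CPM in controls 1, 2 and 3. VLDLR, a lipoprotein receptor, stood at 34.8, 28.8 and 36.4 CPM in overexpression 1, 2 and 3, against 31.4, 26.4 and 40.6 CPM in controls 1, 2 and 3. Log2 fold changes were -0.57 for CHAC1, 0.05 for SESN2 and 0.02 for VLDLR, each with an SE of 0.22 to 0.38.

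**Figure D3:**
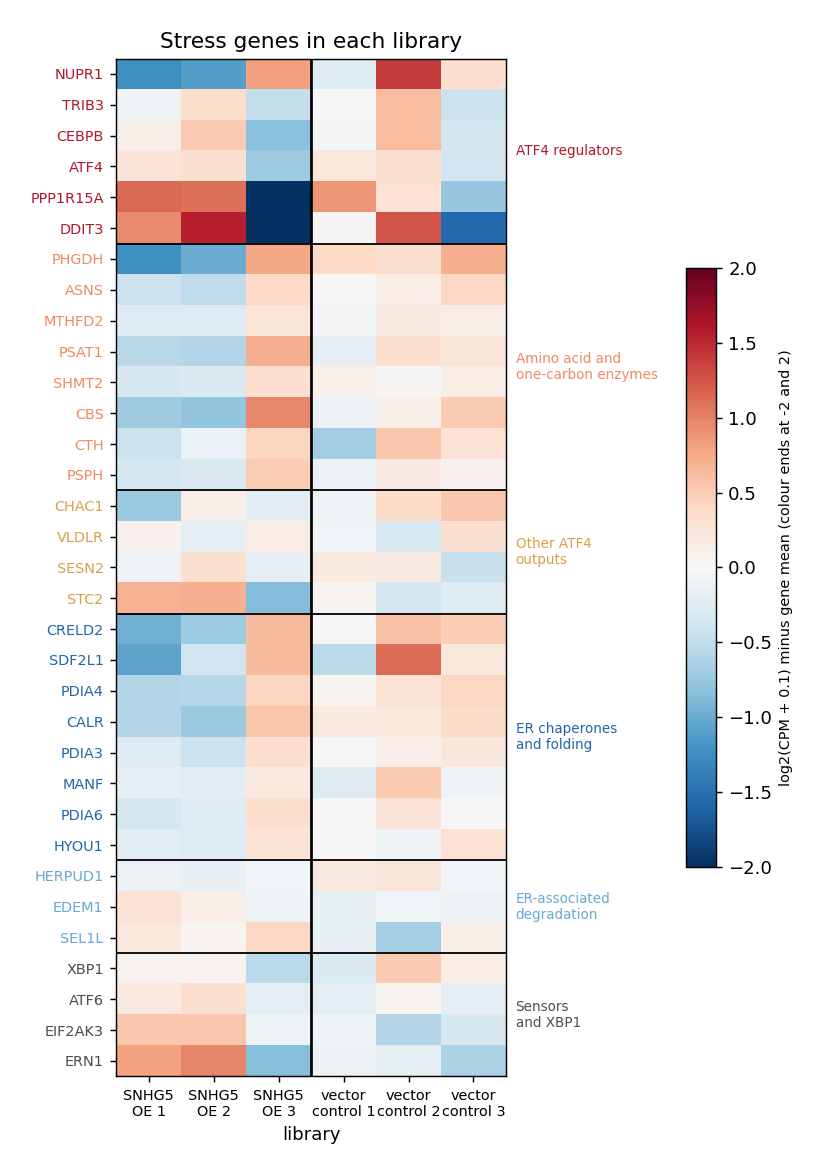
Each gene's log2(CPM + 0.1) minus its mean over the 6 libraries, as colour (red higher, blue lower), with SNHG5 overexpression libraries left of the vector controls and genes grouped by role. Most enzymes and chaperones are blue in overexpression 1 and 2 and red in overexpression 3, and DDIT3 and PPP1R15A have the opposite colours.

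All 8 ER chaperones and folding factors also had lower fitted levels in the overexpression libraries, against 7699 of all 15631 genes tested, and none of the 8 passed the threshold. MANF and SDF2L1 turned in sign in 1 of 13 alternative fits each. CALR, the lectin chaperone calreticulin (chromosome 19, 12938578 to 12944489, plus strand), stood at 234, 209 and 519 CPM in overexpression 1, 2 and 3, against 401, 408 and 453 CPM in controls 1, 2 and 3. Overexpression 1 and 2 lay well below every control and overexpression 3 above all of them, with means of 321 ± 172 CPM with SNHG5 and 421 ± 28.4 CPM with vector (SD, n = 3 each) and a log2 fold change of -0.39 (SE 0.35). PDIA4, a disulfide isomerase (chromosome 7, 149003062 to 149028641, minus strand), stood at 216, 219 and 441 CPM in the overexpression libraries. Its controls held 335, 396 and 434 CPM, for a log2 fold change of -0.41 (SE 0.31, edgeR adjusted p 0.751). CRELD2, an ER protein with an ERSE in its window, stood at 6.86, 8.15 and 20.9 CPM in overexpression 1, 2 and 3, against 13.5, 20.3 and 19.0 CPM in controls 1, 2 and 3. It had a log2 fold change of -0.55 (SE 0.44) and overlaps ALG12 on the opposite strand. SDF2L1, a cofactor of the chaperone BiP with an ERSE-II, stood at 3.64, 5.82 and 12.0 CPM in overexpression 1, 2 and 3 and 5.33, 16.8 and 8.87 CPM in controls 1, 2 and 3. Here control 1 lay among the overexpression libraries, and control 2 was the highest library.

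The isomerases PDIA3 and PDIA6 had log2 fold changes of -0.19 and -0.14, the chaperone HYOU1 -0.13 and the secreted ER factor MANF -0.17. PDIA3 has a processed copy, PDIA3P1, with 8402 counts over the 6 libraries against 27168 for PDIA3, so reads may have been split. The median log2 fold change of the 8 chaperones was -0.29. For 6 of the 8 overexpression 1 and 2 both lay below all controls. Enzymes and chaperones together held 13 of 16 genes of that kind, and the whole set 15 of 33, against 23.7% of all genes. The regulators held 1 of 6, the other ATF4 outputs 0 of 4, ER-associated degradation 1 of 3 and the sensors with XBP1 0 of 4. The wider lists held 7 of 25 other ATF4 targets, 5 of 29 other ER stress genes and 2 of 12 integrated stress response genes. Both the pattern and the pooling of enzymes with chaperones were chosen after the values were seen, so these shares are a description only. Within same-numbered pairs the median log2 difference of the 8 chaperones was -0.44, -0.81 and 0.17 for replicates 1, 2 and 3, and that of the 8 enzymes -0.40, -0.67 and 0.17. The sign in the third pair was thus opposite to that of the first and second pair in both role groups. The summed level of the 5 fibroblast markers was also lowest in overexpression 1 and 2 and highest in overexpression 3. It was 4.91, 6.19 and 21.1 CPM in overexpression 1, 2 and 3 and 11.1, 10.2 and 20.2 CPM in controls 1, 2 and 3. Most of it came from COL1A1 and COL3A1, with DCN and COL1A2 at 0 to 2 counts. LUM, of the same list, was lowest in overexpression 3, at 0.910, 1.46 and 0.757 CPM in overexpression 1, 2 and 3, against 1.67, 1.25 and 1.48 CPM in controls 1, 2 and 3. The groups of 1 of the 10 epithelial markers, the keratin KRT8, did not overlap, against 13.6% of all genes. KRT8 stood at 1265, 1306 and 2248 CPM in overexpression 1, 2 and 3, against 2473, 2661 and 2438 CPM in controls 1, 2 and 3. EPCAM and KRT19, of the same list, had log2 fold changes of 0.32 and 0.01. The part of these in the result was not tested.

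The genes of ER-associated degradation, which returns misfolded proteins to the cytosol, had fitted levels that were higher for 2 and lower for 1. HERPUD1, a membrane component of the degradation complex and the 1 gene with both an ERSE-II and a CARE in its window, stood at 27.1, 26.3 and 28.5 CPM in overexpression 1, 2 and 3, against 33.5, 34.5 and 28.3 CPM in controls 1, 2 and 3. Its highest library held 1.31 times the lowest, a ratio reached or passed by 93.5% of all genes, and its log2 fold change was -0.23 (SE 0.18). SEL1L, the adaptor of the HRD1 ubiquitin ligase, stood at 178, 159.5 and 205 CPM in the overexpression libraries and 139, 96.1 and 169 CPM in the controls, a log2 fold change of 0.42 (SE 0.24). EDEM1, a mannose-trimming lectin, stood at 85.0, 76.8 and 66.0 CPM in overexpression 1, 2 and 3, against 63.6, 67.2 and 64.5 CPM in controls 1, 2 and 3, a log2 fold change of 0.22 (SE 0.18). The groups overlapped narrowly for both genes, control 3 lying above overexpression 2 for SEL1L and control 2 above overexpression 3 for EDEM1.

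The sensor genes had higher fitted levels in the overexpression libraries, as did 7932 of all 15631 genes tested. EIF2AK3, which encodes PERK (chromosome 2, 88556741 to 88627576, minus strand), stood at 37.6, 37.9 and 24.2 CPM in overexpression 1, 2 and 3, against 24.5, 17.3 and 20.8 CPM in controls 1, 2 and 3. Overexpression 3 lay just under control 1. The means were 33.3 ± 7.83 CPM with SNHG5 and 20.9 ± 3.60 CPM with vector (SD, n = 3 each), and the log2 fold change was 0.67 (SE 0.25, edgeR unadjusted p 0.0293 and adjusted p 0.707). ERN1, which encodes IRE1 (chromosome 17, 64039142 to 64130819, minus strand), stood at 63.2, 71.2 and 19.9 CPM in the overexpression libraries and 32.99, 31.6 and 23.2 CPM in the controls. Its log2 fold change of 0.81 (SE 0.44) was the highest of the 33, although overexpression 3 was the lowest of all libraries. ATF6 stood at 105.6, 116 and 80.3 CPM in overexpression 1, 2 and 3, against 81.8, 94.4 and 81.1 CPM in controls 1, 2 and 3, a log2 fold change of 0.23 (SE 0.20). For 3 of the 4 genes of this role group, all but XBP1, overexpression 1 and 2 lay above all controls, against 22.6% of all genes tested. The pattern was chosen after the values were seen. The wider lists held 3 of 25 other ATF4 targets, 5 of 29 other ER stress genes and 5 of 12 integrated stress response genes of that kind. XBP1, with an ERSE in its own window, stood at 35.8, 36.0 and 23.4 CPM in overexpression 1, 2 and 3, against 28.1, 49.1 and 37.8 CPM in controls 1, 2 and 3, a log2 fold change of -0.27 (SE 0.28).

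Each library was left out in turn. The fit without overexpression 3 was singled out after the values were seen. It gave other values for many of these genes. Without overexpression 3, 12 of the 33 genes had an unadjusted edgeR p under 0.05, against 21.2% of all genes in that fit. PHGDH passed, at a log2 fold change of -1.61 (3.06-fold lower, edgeR adjusted p 0.0443), and 1.03% of all genes passed there. The enzyme and chaperone medians were -0.55 and -0.65 without that library, against -0.15 and -0.29 with it. The sensors with XBP1 had a median of 0.61 in place of 0.45, and the regulators 0.21 in place of -0.07. CALR, CRELD2 and PDIA4 were at -0.93, -1.23 and -0.84, and ERN1 and EIF2AK3 at 1.20 and 0.85, with edgeR adjusted p of 0.0657 to 0.116. The values without overexpression 3 rest on 2 libraries of that group and leave out the 1 that held the least SNHG5 among them. Without overexpression 1 and without overexpression 2, the enzyme medians were 0.01 and -0.06 and the chaperone medians -0.16 and -0.13. The sensors with XBP1 were at 0.38 and 0.30 there, and the regulators at -0.13 and -0.33. In both fits 0 of the 33 genes had an unadjusted edgeR p under 0.05, against 569 of 15959 and 635 of 16042 genes.

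**Figure D4:**
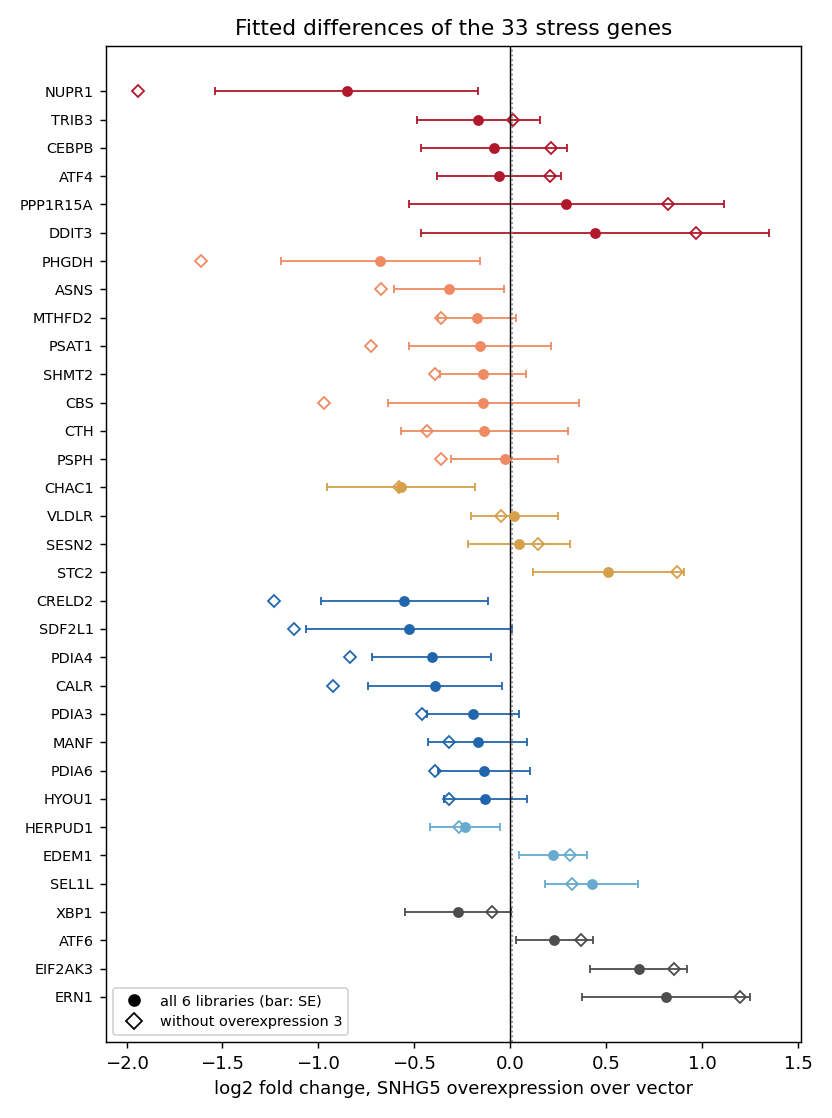
Log2 fold change of SNHG5 overexpression over vector (x axis) for the 33 genes, coloured by role as in the plot of medians; filled points with SE bars use all 6 libraries and open diamonds leave out overexpression 3. The dotted line is the median of all genes tested (0.01); the diamond of PHGDH lies at -1.61.

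Per kilobase of exon, the genes differed widely in level. PPP1R15A averaged 343 CPM per kilobase over the 6 libraries, ATF4 178, CALR 137 and PDIA4 104. NUPR1, CHAC1 and CTH lay lowest at 0.403, 0.802 and 0.872 CPM per kilobase. Exon lengths were the union of exons in GENCODE release 29, and the order depends on them. Without length, CHAC1 lay below NUPR1, at mean CPM of 1.33 against 1.62 with SNHG5 and 1.97 against 2.95 with vector.

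In edgeR the wider pathway lists held no call either, against 0.128% of all genes. An unadjusted edgeR p under 0.05 was reached by 6.49% of all genes, and 13.6% had groups that did not overlap. Of 25 other ATF4 targets, 0 passed in edgeR and 1 had an unadjusted p under 0.05, with a median log2 fold change of 0.01. That gene was WARS, the tryptophanyl-tRNA synthetase, at 112, 95.9 and 142 CPM in overexpression 1, 2 and 3 against 169, 269 and 259 CPM in controls 1, 2 and 3. Its groups did not overlap, and its log2 fold change was -0.99 (SE 0.25, edgeR adjusted p 0.29), while DESeq2 called it with an adjusted p of 0.0466 and limma-voom gave 0.306. GPT2, a transaminase, and SLC7A11, the cystine importer, followed by p with log2 fold changes of -0.84 and 0.49. SLC7A11 stood at 547, 579 and 585.5 CPM in overexpression 1, 2 and 3, against 499, 199 and 524 CPM in controls 1, 2 and 3. Its control 2 lay far below the other 5 libraries. The groups of SLC7A11 did not overlap either, with the overexpression libraries higher.

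Of 30 other ER stress genes, 29 were tested, with a median log2 fold change of -0.00. In edgeR 0 passed and 1 had an unadjusted p under 0.05, against 6.49% of all genes. DNAJC3, the co-chaperone P58IPK that restrains PERK, stood at 78.3, 79.6 and 63.0 CPM in overexpression 1, 2 and 3, against 52.0, 41.4 and 52.7 CPM in controls 1, 2 and 3. Its groups did not overlap, with a log2 fold change of 0.60 (SE 0.20, edgeR adjusted p 0.572). SEC24D, of vesicle coats, and CREB3L2, a membrane-bound transcription factor, came next at -0.40 and 0.58. CREB3L2 stood at 143, 179.5 and 109 CPM in overexpression 1, 2 and 3, against 123, 73.5 and 92.1 CPM in controls 1, 2 and 3, and SEC24D at 42.2, 43.7 and 45.6 CPM in the overexpression libraries and 49.8, 59.6 and 63.9 CPM in the controls. The groups of SEC24D did not overlap either, nor did those of ERO1A, at a log2 fold change of 0.31. Of all genes 13.6% had such groups. Among 12 genes of the integrated stress response, eIF2 kinases and eIF2B subunits included, 0 passed in edgeR. The 1 gene with an unadjusted edgeR p under 0.05, against 6.49% of all genes, was DNAJC3 again. EIF2AK2, which encodes the double-stranded RNA-activated eIF2α kinase PKR, stood at 683, 390.3 and 854 CPM in overexpression 1, 2 and 3 and 1070.0, 675 and 1205 CPM in controls 1, 2 and 3, a log2 fold change of -0.61 (SE 0.34). NCK1, an adaptor of eIF2 dephosphorylation, was at 0.24. DESeq2 called no other gene of the 3 lists.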

How the data were processed

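FastQC and HISAT2 are the tools, and GRCh38 the build, named per the submitters' processing notes. Neither the counter nor its handling of strand is given in the sources used here. The deposited table holds unnormalized counts, and the authors' FPKM beside them, for each gene. The length implied by the deposited FPKM was a median of 1.44 times the exon union over 30 members, and FPKM were not tested.

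Counts were tested with edgeR 4.0.16 (R 4.3.3): TMM, filterByExpr, robust quasi-likelihood, two-sided, Benjamini-Hochberg over 15631 genes, threshold 0.05, checked on simulated counts. The SE is the log2 fold change over the root of F. CPM use TMM-scaled totals, and library medians use log2 CPM with a prior count of 2. P-values measure only the spread between these libraries.

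Deviations of same-numbered libraries from their group means had correlations of 0.35, 0.16 and 0.29 across genes (others -0.34 to 0.12). The sample titles number the libraries but name no pairing, and these correlations come from the same data and depend on each other. The replicate number was entered as a block in 1 of the alternatives. Others were each library left out, RLE and upper-quartile factors, no filter, a stricter filter, DESeq2 1.42.0 and limma-voom (limma 3.58.1).

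Members and lists were chosen with earlier results of these data known. All 33 members are named; values per library go to ATF4, DDIT3, XBP1 and the up to 4 smallest p per role, and the 3 smallest p of each pathway list are named. Levels of CEBPB were added, and patterns over single libraries chosen, after the values were seen.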

Additional observations from a re-analysis of the deposited data

How the results depend on the processing

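Of 429 combinations of 33 genes and 13 alternatives, 428 stayed short of the threshold and 1 passed, PHGDH without overexpression 3. The members past the threshold were 0 higher in every alternative and 0 to 1 lower over the fits without 1 library. Uncalled fold changes turned in sign in 32 combinations for 13 genes, most often PPP1R15A (5) and VLDLR (4), and kept it for 20 genes. Neither RLE nor upper-quartile factors turned a sign. With the replicate block 0 members passed in edgeR, 3 having an unadjusted p under 0.05, while all genes past the threshold numbered 69 lower in place of 16. They numbered 72 lower with no filter, 22 higher and 238 lower with DESeq2 in place of 4 and 16, and 0 to 20 higher and 0 to 144 lower without 1 library. The ATF4 median ran from -0.36 (without overexpression 3) to -0.013 (without control 2), and its difference to the ER median from -0.012 (without overexpression 2) to 0.17 (without control 2). Causes were not tested. The block changed no call of a member. Depth left NUPR1, CHAC1 and CTH with under 80 counts in each library.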

Other observations

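Some stress genes outside the set, chosen after their values were seen, lay beside its role groups. ATF3, a stress-induced transcription factor, stood at 59.0, 41.9 and 4.66 CPM in overexpression 1, 2 and 3, against 33.1, 23.1 and 12.2 CPM in controls 1, 2 and 3, in the same order of libraries as PPP1R15A. GDF15, a secreted stress cytokine, stood at 53.3, 102.5 and 30.8 CPM in overexpression 1, 2 and 3, against 70.8, 176 and 40.9 CPM in controls 1, 2 and 3, in the order of TRIB3. DDIT4, an inhibitor of mTORC1, stood at 39.7, 42.9 and 129 CPM in overexpression 1, 2 and 3, against 51.8, 122 and 88.8 CPM in controls 1, 2 and 3. It was lowest in overexpression 1 and 2, as were 7 of the 8 enzymes. None of the 3 passed in edgeR (adjusted p 0.819, 0.783 and 0.859).

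The ERSE was also found in the windows of HSPA5, HSP90B1, CANX, SERP1 and ERO1B. HSPA5, which encodes BiP, the most used marker of the unfolded protein response, stood at 379, 315 and 564 CPM in overexpression 1, 2 and 3, against 443, 399.5 and 480.2 CPM in controls 1, 2 and 3, a log2 fold change of -0.07. CANX, the membrane lectin paired with CALR, stood at 1548, 1352 and 885 CPM in overexpression 1, 2 and 3, against 1248, 684 and 833 CPM in controls 1, 2 and 3, a log2 fold change of 0.45. Its SE was 0.31, and CALR was at -0.39 (SE 0.35). Neither CALR nor CANX passed in edgeR (adjusted p 0.769 and 0.749). HSP90B1, ERO1B and SERP1 had log2 fold changes of 0.09, 0.24 and 0.70. A link between the element and the fitted direction was not tested.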
